A study of Mus musculus with 5 samples.

Results

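The alveolar luminal (L-Alv) cells of the mouse mammary gland were selected from 5 scRNAseq libraries by their own transcripts. In 10x Genomics 3′ libraries, a barcode marks 1 droplet, and a unique molecular identifier (UMI) marks 1 captured transcript. A barcode was taken as an L-Alv cell when it met 5 limits per 10000 UMIs. *Csn3* and *Spp1* together had to reach 10, *Prlr* and *Cited1* had to stay below 5, *Krt14* and *Krt17* below 8, the fibroblast genes *Col1a1*, *Col1a2*, *Col3a1* and *Dcn* below 50, and *Epcam*, *Krt8* and *Krt18* had to reach 10. Fewer than 2 UMIs of the proliferation genes *Mki67*, *Top2a*, *Cdk1*, *Ube2c* and *Ccnb2* and at most 10% of mitochondrial UMIs were also required. Of 14344 barcodes, 910 met the rule: 29 of OVX, 106 of OVX_E2 and 169 of OVX_E2_PBDE, with 504 of OVX_E2_P4 and 102 of OVX_E2_P4_PBDE. Since the transcripts of these barcodes chose them, the levels of the genes of the rule are given as a description.

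All mice were BALB/cj females, ovariectomized and sampled at 30 weeks of age, after a treatment that began 20 weeks past surgery and ran for 7 days. OVX mice got vehicle alone. OVX_E2 mice were injected with 1 µg of 17β-estradiol (E2) per day. OVX_E2_P4 mice also got 0.1 mg of progesterone (P4) per day. OVX_E2_PBDE and OVX_E2_P4_PBDE mice received the matching hormones and food with polybrominated diphenyl ethers (PBDEs, a class of flame retardants), at 7.1 mg/kg of BDE-47, 0.9 mg/kg of BDE-153 and 0.4 mg/kg of BDE-100. Mice without PBDEs ate matched food with the carrier dimethyl sulfoxide, and mice without hormones were injected with it. The number 4 glands were dissociated with collagenase, dead cells were removed, and no sort was used. Each group had 1 library. The paper gives the number of mice treated per group, but its text and the labels do not say how many each library held. No difference could thus be tested against the spread between animals. Every interval below is a 95% interval for counting error only. The labels name no batch. The libraries carry numbers that are consecutive for both with PBDEs and, apart from these, for the other 3, but whether they were prepared separately is not stated.

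The luminal layer of the mammary epithelium holds a pair of lineages. Hormone-sensing luminal (L-Hor) cells carry the estrogen and progesterone receptors. They answer E2 and P4 with paracrine signals such as amphiregulin (*Areg*) and RANKL. L-Alv cells mostly lack these receptors and depend on the transcription factor Elf5. They include the progenitors of the cells that make milk in lactation, when prolactin acts through JAK2 and STAT5.

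The 5 libraries held between 2233 and 3536 barcodes each, with 19982067 to 42012988 UMIs in all. The L-Alv cells brought 264963 UMIs in OVX, 1462947 in OVX_E2 and 2623675 in OVX_E2_PBDE, with 6121535 in OVX_E2_P4 and 973829 in OVX_E2_P4_PBDE. Their median depth was 5571, 11431, 13346, 9550.5 and 7205.5 UMIs, in the same order, and their median mitochondrial share lay between 2.48% and 3.07%. Any pair of libraries shared between 3 and 15 barcode sequences. Values near the limits of the rule were common. Of the L-Alv cells, 2, 19, 21, 50 and 12 had between 10 and 15 UMIs of *Csn3* and *Spp1* per 10000, and 2, 14, 17, 38 and 11 barcodes that met every other limit fell between 5 and 10. The lowest value inside was 10.1 and the highest outside was 9.97, both in OVX_E2_P4. On the side of *Prlr* and *Cited1*, 116 of the OVX_E2_P4 cells lay between 2 and 5 per 10000, and 94 barcodes of that library were left out with values between 5 and 10.

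The label was checked on the 7 markers *Csn3*, *Spp1*, *Wfdc18*, *Plet1*, *Ltf*, *Elf5* and *Lalba*, of which *Csn3* (κ-casein) and *Spp1* (osteopontin) belonged to the rule. All 7 had UMIs in every library. The other 5 were compared with L-Hor cells (at least 10 UMIs of *Prlr* and *Cited1* per 10000 and below 5 of *Csn3* and *Spp1*, otherwise chosen alike). Levels are given in CPM, the UMIs of a gene per 1000000 UMIs summed over the cells. *Elf5* was at 103 to 125 CPM in the L-Alv cells of the 4 libraries with E2, against 14.6 CPM in their L-Hor cells, summed over the 4. *Plet1*, a surface protein of luminal progenitors, was at 2272 to 3316 CPM in L-Alv cells and at 409 CPM in L-Hor cells. The hormone receptor transcripts had the opposite order. *Esr1* stayed between 6.86 and 41.5 CPM and *Pgr* between 6.54 and 22.6 CPM over the 5 sets of L-Alv cells, whereas the L-Hor cells of the libraries with E2 held 54.4 and 129 CPM. The barcodes thus carried the L-Alv markers that the rule had not used.

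*Wfdc18*, *Lalba* and *Ltf* encode secreted proteins of milk or of glandular fluid: a whey acidic protein family member, α-lactalbumin, which is the cofactor of lactose synthase, and the iron-binding lactoferrin. Their promoters are shown because these genes mark the lineage and, among the 5 markers outside the rule, their levels differed most between the libraries with E2. Each sequence is from RefSeq (GRCm38.p6), in lower case, and runs from 250 bases before the start of the transcript to 50 bases after it. Capitals mark AGGAAG or its reverse complement CTTCCT, letters that hold the GGAA core which ETS factors such as Elf5 bind.
*Wfdc18*, chr11:83708754-83709053, plus strand: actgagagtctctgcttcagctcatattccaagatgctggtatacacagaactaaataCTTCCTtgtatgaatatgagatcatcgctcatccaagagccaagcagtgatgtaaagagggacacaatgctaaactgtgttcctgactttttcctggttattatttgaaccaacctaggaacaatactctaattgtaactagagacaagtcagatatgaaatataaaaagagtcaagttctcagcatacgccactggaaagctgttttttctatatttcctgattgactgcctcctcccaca
*Lalba*, chr15:98482634-98482933, minus strand: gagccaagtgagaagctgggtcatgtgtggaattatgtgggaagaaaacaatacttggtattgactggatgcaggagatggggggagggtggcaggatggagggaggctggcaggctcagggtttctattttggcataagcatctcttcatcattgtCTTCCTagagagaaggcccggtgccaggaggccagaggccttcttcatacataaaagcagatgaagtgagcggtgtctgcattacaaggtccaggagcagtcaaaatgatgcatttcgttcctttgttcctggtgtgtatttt
*Ltf*, chr9:111019042-111019341, plus strand: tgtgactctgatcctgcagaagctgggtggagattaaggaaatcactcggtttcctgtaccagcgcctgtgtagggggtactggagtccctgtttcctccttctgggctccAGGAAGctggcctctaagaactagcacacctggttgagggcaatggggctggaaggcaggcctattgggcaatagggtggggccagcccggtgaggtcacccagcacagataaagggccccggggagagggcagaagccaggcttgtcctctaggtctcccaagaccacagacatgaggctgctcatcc
The match began 192 bases before the start in *Wfdc18* and 93 bases before it in *Lalba*, both as CTTCCT, and 139 bases before it in *Ltf*, as AGGAAG. RefSeq held promoters for 6 of the 7 markers, 8 in all, and AGGAAG on either strand was in 5 of them (62.5%). It was in 11613 of all 32851 promoters of this length (35.4%). The STAT motif TTCNNNGAA, which reads the same on both strands, was in 0 of the 8 and in 8.30% of all promoters. A match is a run of letters in this window and no evidence of binding.

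In OVX, 0.933% of all barcodes were L-Alv cells (interval 0.626% to 1.34%, n = 29). The share was 4.75% in OVX_E2 (3.90% to 5.71%) and 4.78% in OVX_E2_PBDE (4.10% to 5.53%), with 16.2% in OVX_E2_P4 (14.9% to 17.6%) and 4.32% in OVX_E2_P4_PBDE (3.54% to 5.22%). The intervals of OVX_E2_P4, the highest, and of OVX, the lowest, thus overlapped no other. The ratio of OVX_E2_P4 to OVX_E2 was 3.42 (2.79 to 4.18), whereas that of OVX_E2_P4_PBDE to OVX_E2_PBDE was 0.905 (0.712 to 1.15). For PBDEs, the ratio of OVX_E2_PBDE to OVX_E2 was 1.01 (0.794 to 1.28), and that of OVX_E2_P4_PBDE to OVX_E2_P4 was 0.267 (0.217 to 0.328). Without barcodes over 15000 UMIs, the ratio of OVX_E2_P4_PBDE to OVX_E2_PBDE became 1.20 (0.908 to 1.59), on the other side of 1.

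Shares of all barcodes move with every other cell type, and the libraries differed widely in these. Fibroblasts (at least 50 UMIs of the 4 collagen and decorin genes per 10000 and below 2 of the 3 epithelial genes) made up 54.7% of OVX, 11.3% of OVX_E2 and 22.3% of OVX_E2_PBDE, with 2.16% of OVX_E2_P4 and 5.77% of OVX_E2_P4_PBDE. Among epithelial barcodes, the L-Alv share was 8.81%, 9.04%, 12.0%, 23.5% and 7.39% in the same order. Against this base, the ratio for P4 was 2.59 (2.13 to 3.16) without PBDEs and 0.614 (0.485 to 0.776) with them. Among L-Alv and L-Hor cells alone, 22.3% (15.5% to 30.4%) were L-Alv in OVX, 15.6% (13.0% to 18.6%) in OVX_E2, 20.4% (17.7% to 23.3%) in OVX_E2_PBDE, 39.8% (37.1% to 42.6%) in OVX_E2_P4 and 12.5% (10.3% to 15.003%) in OVX_E2_P4_PBDE. OVX_E2_P4 was highest on each of these bases, while OVX was lowest only against all barcodes. Barcodes that carried both luminal programs (as the rule, but with *Prlr* and *Cited1* at 5 or more per 10000) were left out and numbered 104, 150, 214, 248 and 210. Their median depth was between 14610 and 26554.5 UMIs, above that of the L-Alv cells in each library.

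**Figure D1:**
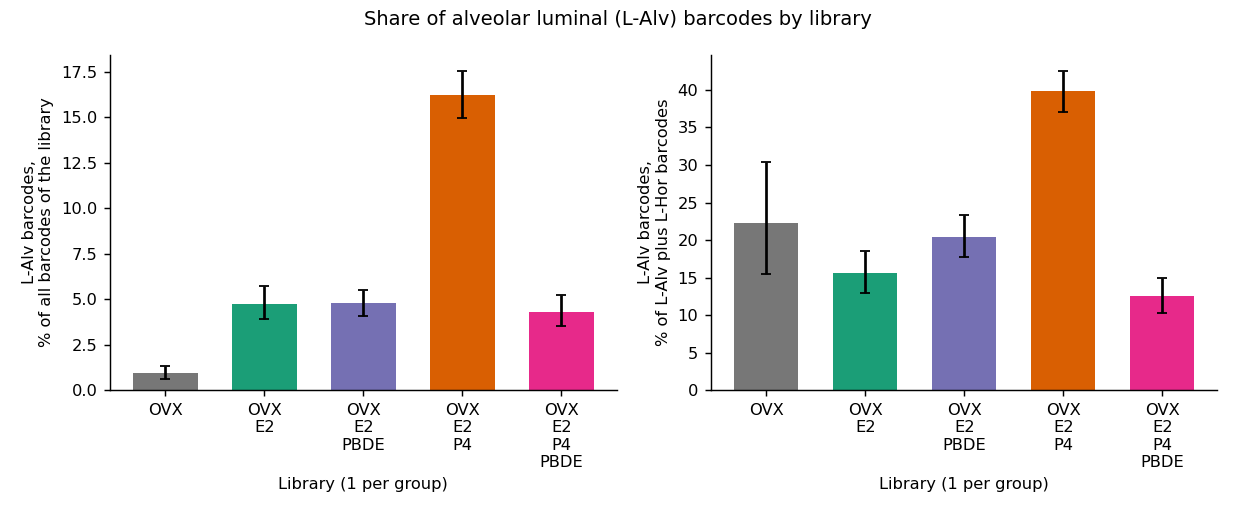
Bars give L-Alv cells as a percent of all barcodes (left axis panel) and of L-Alv and L-Hor cells together (right panel) in the 5 libraries, 1 per group, and error bars the 95% Clopper-Pearson intervals. On the left OVX_E2_P4 stands at 16.2% and the others lie between 0.933% and 4.78%, while on the right OVX_E2_P4 stands at 39.8% and the others between 12.5% and 22.3%.

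The levels of the markers were compared next. *Csn3* was at 4046 CPM in OVX, 2069.8 in OVX_E2 and 2566 in OVX_E2_PBDE, with 2579.8 in OVX_E2_P4 and 2544 in OVX_E2_P4_PBDE. *Spp1* was at 2646, 1489, 2372, 2468.5 and 1969 CPM. In OVX 1 of the 29 cells held 315 of the 701 UMIs of *Spp1*, and without it the level there was 1492.5 CPM. *Wfdc18* was at 1766, 1321, 1754, 2240.0 and 1488 CPM. In all 3 of these, OVX_E2 was the lowest library. In OVX_E2_P4, *Wfdc18* and *Spp1* were the highest of the libraries with E2.

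*Lalba* was at 283 CPM in OVX, 97.7 in OVX_E2 and 152 in OVX_E2_PBDE, with 214 in OVX_E2_P4 and 269 in OVX_E2_P4_PBDE. In OVX 1 cell held 34 of the 75 UMIs of *Lalba*. Without the highest cell of each library it was at 158.5 CPM in OVX and at 73.9, 136, 207.6 and 207.5 CPM in those with E2, so that OVX was no longer highest. With and without these cells OVX_E2 was lowest, and both libraries with P4 were above both with E2 and no P4. L-Hor cells of the libraries with E2 held 3.37 CPM of *Lalba*. After each cell was thinned to 3000 UMIs, *Lalba* was seen in 34.5% of the OVX cells, 16.0% of OVX_E2 and 21.3% of OVX_E2_PBDE, with 30.2% of OVX_E2_P4 and 31.4% of OVX_E2_P4_PBDE. The same measure in L-Hor cells ran from 0.175% to 1.98%, and in fibroblasts it was at most 0.127%. The *Lalba* gene lies at chr15:98480400-98482721 of GRCm38 (GENCODE M21, minus strand).

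*Ltf* was at 1570.0 CPM in OVX, 350.0 in OVX_E2 and 268 in OVX_E2_PBDE, with 578 in OVX_E2_P4 and 338 in OVX_E2_P4_PBDE. *Elf5*, by contrast, was at 174, 124, 122, 125 and 103 CPM and *Plet1* at 4461, 3316, 2791.5, 3136 and 2272 CPM. Among the libraries with E2, *Elf5* stood at nearly the same level, with OVX_E2_P4_PBDE lowest for *Elf5* and *Plet1* alike. The bactericidal lipocalin gene *Lcn2* was as even, with 2725, 3092, 3141, 3134.5 and 2960.5 CPM. *Kit*, the stem cell factor receptor of luminal progenitors, was at 49.1, 46.5, 42.7, 57.8 and 30.8 CPM.

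**Figure D2:**
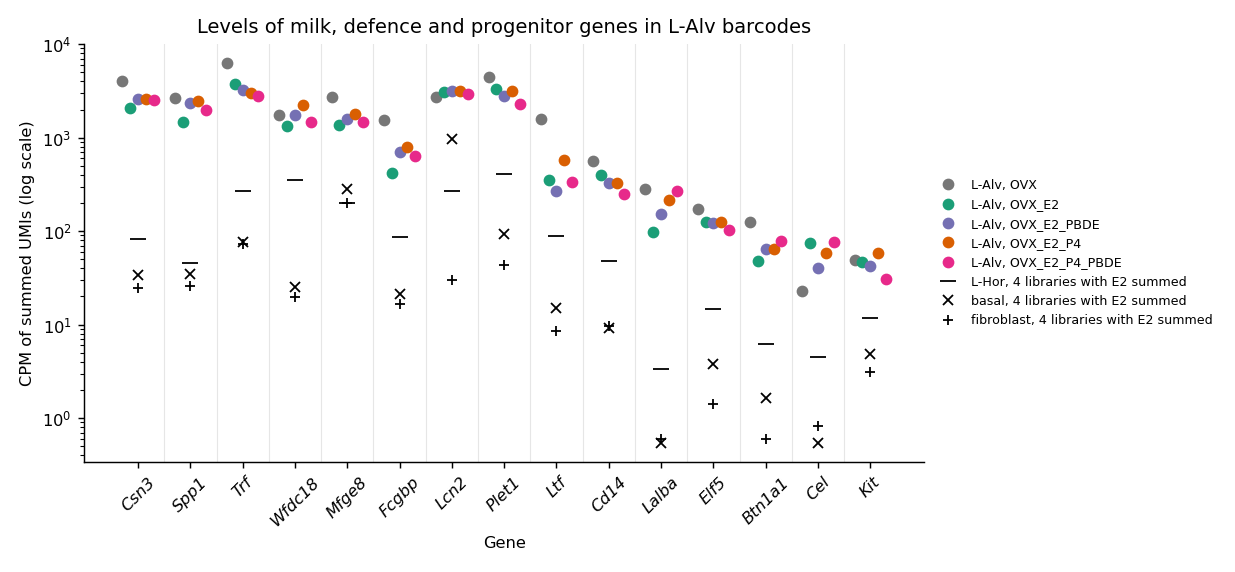
Levels in CPM (log axis) of milk, defense and progenitor genes, with a colored point for the summed L-Alv cells of each library and a black sign for L-Hor, basal and fibroblast cells summed over the 4 libraries with E2. The points for *Lalba* lie between 97.7 and 283 CPM, far above its black signs, of which that of L-Hor cells at 3.37 CPM is highest (its OVX point falls to 158.5 CPM without 1 cell), while *Elf5* stays between 103 and 174 CPM.

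Milk genes of lactation were near or at the floor. *Csn2* (β-casein), *Glycam1* and *Lpo* (lactoperoxidase) had 0 UMIs in the L-Alv cells of all 5 libraries. A count of 0 allows up to 3 UMIs, which is a level of 0.490 CPM for *Csn2* in OVX_E2_P4 and of 11.3 CPM in OVX. *Csn1s1* (αS1-casein) was at 0, 0, 1.91, 1.63 and 1.03 CPM, and *Wap* (whey acidic protein) reached at most 2.29 CPM. The other caseins, except *Csn3* of the rule, were low but detected. *Csn1s2a* (an αS2-casein gene) was at 11.3, 4.10, 6.86, 7.84 and 12.3 CPM and *Csn1s2b* at 7.55, 4.78, 4.57, 4.25 and 6.16 CPM. In the libraries with E2, *Csn1s2a* was seen in 5.66% to 9.80% of the L-Alv cells and in at most 0.699% of the L-Hor cells. Compared with caseins other than *Csn3*, some genes of secretion outside the casein group were higher. Among these, *Trf* (transferrin) was at 6295 CPM in OVX, 3793 in OVX_E2 and 3204 in OVX_E2_PBDE, with 2994 in OVX_E2_P4 and 2822 in OVX_E2_P4_PBDE, and *Mfge8* (a milk fat globule protein) was at 2751, 1383, 1594, 1774 and 1469 CPM.

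Each gene was also compared with L-Hor, basal and fibroblast cells of the same library. Basal cells had at least 15 UMIs of *Krt14* and *Krt17* per 10000 and below 5 of each luminal pair. Of 3547 genes at 20 CPM or more, 76 were at least 2-fold higher than in each of these 3 classes in all 4 libraries with E2, 18 were at least 5-fold and 2 at least 10-fold higher. These ratios compare cells chosen by their transcripts and are a description. Barcodes with both luminal programs were not among the 3 classes. Over the libraries with E2, these held 95.01 CPM of *Lalba*, 132 of *Cck* and 78.6 of *Elf5*, against 189, 209 and 122 CPM in the L-Alv cells. *Lalba* led with 31.3-fold over the next class in the library where it stood out least. *Cck*, the gene of the peptide hormone cholecystokinin, followed with 12.0-fold. It was at 129.9 CPM in OVX_E2 and 231 in OVX_E2_PBDE, with 208 in OVX_E2_P4 and 278 in OVX_E2_P4_PBDE, against 11.001 CPM in L-Hor cells, and lies at chr9:121489824-121495694 of GRCm38 (GENCODE M21, minus strand). Next came *Trf* (9.05-fold), *Cel* (bile salt-dependent lipase, 7.47-fold), *Bglap3* (6.45-fold), the tetraspanin gene *Tspan8* (6.39-fold), *Car2* (carbonic anhydrase 2, 6.29-fold), *Btn1a1* (butyrophilin, which coats milk fat globules, 6.196-fold), *Plet1* (6.09-fold), *Ceacam1* (5.88-fold), *Bex1* (5.55-fold) and *Elf5* (5.51-fold). For the 20 genes with the highest such ratios, RefSeq held 20 promoters of 15 genes, and 9 of them (45%) held AGGAAG on either strand.

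Receptors for the signals of L-Hor cells were also read. *Tnfrsf11a*, the gene of the RANKL receptor RANK, was between 9.17 and 12.3 CPM in the libraries with E2, against 1.74 CPM in their L-Hor cells. *Prlr*, the prolactin receptor and a gene that the rule caps, was between 94.5 and 146 CPM. *Areg* was at 3.77 CPM in OVX, 150.4 in OVX_E2 and 101 in OVX_E2_PBDE, with 109.8 in OVX_E2_P4 and 153 in OVX_E2_P4_PBDE. In L-Hor cells of the libraries with E2 the level of *Areg* was 1553 CPM.

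Within a library, some genes varied among the L-Alv cells far beyond counting noise. Thinned to 3000 UMIs per cell, 2120 genes had a mean of at least 0.1 UMI in the libraries with E2. The variance divided by the mean, which is 1 for counting noise alone, had a median of 1.05 over these genes and a 95th percentile of 1.81. It was 16.6 for *Fos*, 14.6 for *Spp1*, 13.9 for *Actb*, 12.4 for *Cst3*, 11.6 for *Malat1*, 9.90 for *Wfdc18*, 9.06 for *Ltf*, 8.96 for *Cxcl1*, 7.88 for *Mt1* and 5.91 for *Krt18*, each as the median over the 4 libraries. Of these, *Spp1* and *Krt18* are genes of the rule, *Fos* is an immediate early gene that tissue dissociation is known to induce, and *Mt1* encodes a metallothionein. *Csn3* had 5.60, although the rule set its floor together with *Spp1*.

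Per cell, *Wfdc18* in OVX_E2_P4 had a 10th percentile of 1.34 UMIs per 10000, a median of 13.5 and a 90th percentile of 58.3. For *Lalba* the median cell had 0 in every library, and between 57.9% and 67.0% of the cells had no UMI. *Ltf* was without a UMI in 24.1% of the OVX cells, 37.7% of OVX_E2 and 49.1% of OVX_E2_PBDE, with 34.7% of OVX_E2_P4 and 44.1% of OVX_E2_P4_PBDE. These shares depend on the depth of the cells, and thinned to 3000 UMIs *Ltf* was seen in 55.2%, 29.2%, 34.3%, 41.9% and 39.2% of them. *Plet1*, at the other end, was missing from at most 1 cell in any library.

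**Figure D3:**
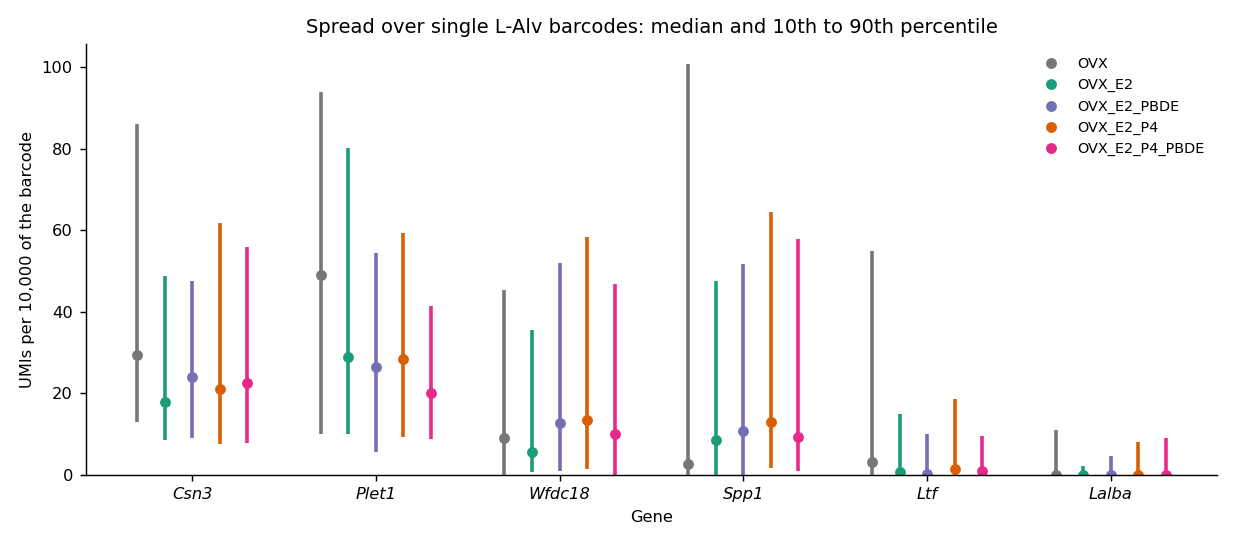
UMIs per 10000 of single L-Alv cells for 6 markers in each library, with the median cell as a point and the range from the 10th to the 90th percentile as a line. The lines of all libraries overlap for each gene, and the median for *Lalba* is 0 in all 5 libraries.

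Genome-wide, P4 was compared as OVX_E2_P4 over OVX_E2 (without PBDEs) and as OVX_E2_P4_PBDE over OVX_E2_PBDE (with PBDEs). These comparisons have no library in common. Genes that had 50 or more UMIs in a pair of libraries were compared after 1 UMI was added to each sum, and a gene was called at 2-fold or more, with no test. Without PBDEs, 96 of 7840 genes were higher (1.22%) and 83 lower (1.06%). With PBDEs, 54 of 5244 genes were higher (1.03%) and 44 lower (0.839%). The balance turned with the number of UMIs added, since with 5 in place of 1 the counts were 12 higher and 155 lower without PBDEs, and 64 higher and 8 lower with them. Of 5242 genes compared in both, 21 and 54 were called higher without and with PBDEs, and 25 and 43 lower. Of the 5242, 0 were called higher in both (0%) and 0 lower in both (0%). So few calls leave little room for overlap, and nothing is read from its absence. Across these genes Pearson's r between the log2 ratios was 0.045, and over the 654 of them with at least 500 UMIs in each comparison it was 0.26. Genes are not independent replicates, and shallow genes dominate the first value.

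The genes below are among the 15 in each direction with the largest smaller change over the pair of comparisons. *Cebpb*, a bZIP transcription factor needed for alveolar development, was at 257 CPM in OVX, 256 in OVX_E2 and 594 in OVX_E2_PBDE, with 869 in OVX_E2_P4 and 1009 in OVX_E2_P4_PBDE. It was 3.38-fold higher with P4 in the absence of PBDEs (3.05 to 3.77) and 1.70-fold higher in their presence (1.57 to 1.84). The corresponding ratios in L-Hor cells were 3.60 and 1.67. *Lalba* was 2.18-fold (1.85 to 2.63) and 1.77-fold (1.51 to 2.07) higher. *Cdk2ap1*, a cyclin-dependent kinase 2 associated protein, was at 8.89, 14.1, 21.7 and 27.7 CPM in OVX_E2, OVX_E2_PBDE, OVX_E2_P4 and OVX_E2_P4_PBDE. Its ratios were 2.29 (1.38 to 4.71) and 1.99 (1.15 to 3.32). *Igfbp7*, a secreted insulin-like growth factor binding protein, was 1.72-fold (1.34 to 2.29) and 2.25-fold (1.76 to 2.87) higher. In OVX_E2_P4_PBDE, 1 cell held 44 of the 125 UMIs of *Igfbp7*, and without the highest cell of each library it was at 83.6 CPM there and 55.7 in OVX_E2_PBDE, short of 2-fold. *Aqp3*, a water and glycerol channel, was 1.77-fold (1.27 to 2.65) and 1.71-fold (1.07 to 2.65) higher.

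On the lower side stood 4 genes of the interferon-inducible p200 family, *Ifi203*, *Mndal*, *Ifi202b* and *Mnda*. These are close paralogs that share reads, so that counts of any 1 of them are uncertain. *Ifi203* was at 166 CPM in OVX, 178 in OVX_E2 and 175 in OVX_E2_PBDE, with 50.5 in OVX_E2_P4 and 96.5 in OVX_E2_P4_PBDE. In OVX 1 cell held 26 of the 44 UMIs of *Ifi203*, and without it the level there was 70.6 CPM. Its ratio with P4 was 0.284 (0.240 to 0.336) without PBDEs and 0.556 (0.437 to 0.690) with them. For *Mndal* the ratios were 0.271 and 0.515, for *Ifi202b* 0.436 and 0.511 and for *Mnda* 0.392 and 0.587. In L-Hor cells *Ifi203* had ratios of 0.425 and 0.828 in the same comparisons. The neutrophil-attracting chemokine gene *Cxcl1* was at 398 CPM in OVX_E2 and 251 in OVX_E2_P4, and at 579 in OVX_E2_PBDE and 264 in OVX_E2_P4_PBDE, with ratios of 0.630 (0.573 to 0.695) and 0.457 (0.398 to 0.521).

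Other genes were called in a single P4 comparison, and some of them were too shallow to compare in the other. Without PBDEs, *Klk10*, a kallikrein-related peptidase gene, went from 1.37 CPM to 12.7 CPM (6.29-fold, 2.495 to 78.3). *Fgg* (the fibrinogen γ chain) went from 4.10 to 18.1 CPM (3.82-fold, 1.97 to 12.3), and *Ccnd1* (cyclin D1) from 272 to 135 CPM (ratio 0.497, 0.441 to 0.562). With PBDEs, the ratio of *Ccnd1* was 0.988 (0.821 to 1.18). *S100g*, a calcium-binding protein gene, was 4.04-fold higher with P4 in the presence of PBDEs (2.54 to 6.65), from 11.8 to 48.3 CPM. It was seen in 5 of 169 and 3 of 102 cells, of which 1 held 19 of the 31 and 1 held 28 of the 47 UMIs, and without these the levels were 4.59 and 20.1 CPM. *Csf3*, the granulocyte colony-stimulating factor gene, was lower there, from 99.1 to 29.8 CPM (ratio 0.310, 0.197 to 0.442). The ratio of *Csf3* without PBDEs was 0.767, but 1 cell held 51 of the 147 UMIs in OVX_E2, and without the highest cells the order turned (66.2 CPM in OVX_E2 and 72.4 in OVX_E2_P4).

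PBDEs were compared as OVX_E2_PBDE over OVX_E2 (without P4) and as OVX_E2_P4_PBDE over OVX_E2_P4 (with P4), again without a library in common. Without P4, 37 of 5792 genes were higher (0.639%) and 47 lower (0.811%). The median log2 ratio over all genes was -0.16 there, and at most 0.10 from 0 in the other 3 comparisons. With P4, 124 of 7597 genes were higher (1.63%) and 159 lower (2.09%). With 5 UMIs added, these counts were 17 and 43 without P4, and 255 and 9 with it. Of 5789 genes compared in both, 35 and 60 were called higher without and with P4, and 47 and 69 lower. Of the 5789, 5 were higher in both (0.0864%), which is 14.3% of the 35 and 8.33% of the 60. Lower in both were 2 (0.0345%), which is 4.26% of the 47 and 2.90% of the 69. Pearson's r across genes was 0.084, and 0.21 over the 759 genes with at least 500 UMIs in each comparison.

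Markers of other cell types moved with some of these comparisons. The counts here leave out the genes that the rule caps (*Prlr* and *Cited1*, *Krt14* and *Krt17*, and the collagen and decorin genes). For P4 without PBDEs, all 4 basal markers compared were negative (median -0.53), and *Acta2* was called lower. Without the highest cells the order of *Acta2* turned (14.6 CPM in OVX_E2 and 24.7 in OVX_E2_P4). Of 9 L-Hor markers there, 7 were negative (median -0.22), with *Fgg* called higher and *Gpx3* lower. Of 5 fibroblast markers, 3 were negative (median -0.09). For P4 with PBDEs, the 6 L-Hor markers and the 4 fibroblast markers compared all had a positive log2 ratio (medians 0.65 and 0.54), with 0 called. The endothelial markers went from 18.3 to 48.3 CPM in sum there. Of these *Fabp4* alone was deep enough and was called higher (11.4 and 29.8 CPM, or 10.1 and 18.6 CPM without the highest cells, short of 2-fold). For PBDEs without P4, the 6 L-Hor markers were all negative (median -0.57), and 3 of 4 fibroblast markers were positive (median 0.21). For PBDEs with P4, all 5 fibroblast markers were positive (median 0.68) and *Mfap5* was called higher. Of 9 L-Hor markers there, 4 were positive and 5 negative (median -0.0045), with *Gpx3* called higher and *Fgg* lower. The summed L-Hor markers in L-Alv cells, genes of the rule included, were at 1967 CPM in OVX_E2 and 1330.2 in OVX_E2_PBDE, with 1644 in OVX_E2_P4 and 1911 in OVX_E2_P4_PBDE. *Cd9* was their most abundant gene in all of these but OVX_E2_P4_PBDE, where *Gpx3* was, and *Tph1* was at 0 in each. The summed fibroblast markers were at 1103 and 1102 CPM, with 992 and 1462 CPM, in the same order, led by *Gsn*, and none was at 0. Their part in the counts above was not tested.

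The 5 genes higher in both were *Myl9*, *Cnn1*, *Ly6c1*, *Rps27rt* and *Gm10263*. With fibroblast levels subtracted, the log2 ratio of *Gm10263* for PBDEs with P4 turned to -3.49. The full fibroblast level of each gene was subtracted, far more than the fibroblast markers in L-Alv cells show, so nothing is read from this value. *Myl9* and *Cnn1* encode a myosin light chain and calponin, contractile proteins of basal (myoepithelial) cells. *Myl9* was at 3.77 CPM in OVX, 8.89 in OVX_E2 and 30.9 in OVX_E2_PBDE, with 7.84 in OVX_E2_P4 and 37.0 in OVX_E2_P4_PBDE. The ratios were 3.27 (1.92 to 6.80) and 4.75 (2.97 to 7.42). However, 1 cell held 55 of the 81 UMIs of *Myl9* in OVX_E2_PBDE and 1 cell held 19 of the 36 in OVX_E2_P4_PBDE. Without the highest cell of each library, the levels were 3.47, 10.1, 7.04 and 18.1 CPM in OVX_E2, OVX_E2_PBDE, OVX_E2_P4 and OVX_E2_P4_PBDE. *Cnn1* was at 8.20, 18.7, 6.04 and 15.4 CPM, and without the highest cells at 5.56, 6.59, 5.75 and 10.6 CPM. *Ly6c1*, a surface antigen gene, was at 15.7, 35.8, 24.7 and 52.4 CPM, with ratios of 2.21 (1.43 to 3.77) and 2.15 (1.51 to 2.93). *Rps27rt*, a retrogene of a ribosomal protein gene, shares reads with its parent gene, so that its count is uncertain. For *Rps27rt* the ratios were 2.22 (1.95 to 2.56) and 2.43 (2.21 to 2.66) in L-Alv cells and 2.31 in both comparisons in L-Hor cells. Without the 20% of barcodes with the highest doublet scores, *Myl9* and *Cnn1* were no longer higher in both, and *Rps27rt*, *Gm10263*, *Ly6c1* and *Gm8186* were.

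Of the 12 basal markers, 7 could be compared for PBDEs. Without P4, 3 were called higher (*Krt14*, *Myl9* and *Cnn1*), and with P4, 4 were (*Krt17*, *Acta2*, *Myl9* and *Cnn1*). *Krt14* and *Krt17* are genes of the rule, which caps them. The other 5 had a positive log2 ratio in both comparisons, with medians of 0.54 and 1.40. *Tagln* (transgelin) was at 50.6, 57.6, 34.0 and 44.2 CPM in OVX_E2, OVX_E2_PBDE, OVX_E2_P4 and OVX_E2_P4_PBDE. Leaving out the highest cell of each library gave 35.4, 23.3, 30.9 and 27.6 CPM, so that the direction turned in both comparisons. The summed level of the 12 in L-Alv cells was 102 CPM in OVX, 180 in OVX_E2 and 303 in OVX_E2_PBDE, with 132 in OVX_E2_P4 and 283 in OVX_E2_P4_PBDE, against 19982 CPM or more in basal cells of the same libraries. *Acta2* (smooth muscle actin) was their most abundant gene in OVX_E2, OVX_E2_PBDE and OVX_E2_P4_PBDE, with 57.4, 84.2 and 83.2 CPM. In these libraries 1 cell held 63 of the 84, 127 of the 221 and 44 of the 81 UMIs of *Acta2*. Leaving out each highest cell gave 14.6, 36.5, 24.7 and 39.3 CPM in the 4 libraries with E2, in the order above, short of 2-fold for PBDEs with P4 and past it without P4. In OVX, 6 of the 12 listed genes were at 0, and in the libraries with E2 none was. The part of basal transcripts in the values of *Myl9* and *Cnn1* was not tested.

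*Upk3a* was among the genes lower in both. The gene, which encodes the membrane protein uroplakin 3a, was at 83.0 CPM in OVX, 52.6 in OVX_E2 and 13.3 in OVX_E2_PBDE, with 45.3 in OVX_E2_P4 and 18.5 in OVX_E2_P4_PBDE. Its ratios were 0.257 (0.165 to 0.383) and 0.430 (0.239 to 0.658), and both PBDE libraries were below the other 3. For *Upk3a*, 1 cell held 44 of the 77 UMIs in OVX_E2, 18 of the 35 in OVX_E2_PBDE and 11 of the 18 in OVX_E2_P4_PBDE. Without the highest cell of each library it was at 56.4 CPM in OVX and at 22.9, 6.56, 37.0 and 7.30 CPM in those with E2. *Upk3a* was not among the genes lower in both without the 20% highest doublet scores, without barcodes over 15000 UMIs, with either limit of the rule made stricter, when thinned or with 5 UMIs added. Short of 2-fold, the immune-inhibitory surface protein gene *Cd200* was at 316, 559, 364 and 627 CPM, 1.76-fold (1.59 to 1.96) and 1.73-fold (1.57 to 1.89) higher with PBDEs. *Cebpb* was 2.31-fold higher with PBDEs in the absence of P4 (2.07 to 2.60) and 1.16-fold higher in its presence (1.08 to 1.24). In L-Hor cells too, *Cebpb* was at least 2-fold higher for PBDEs without P4, and *Upk3a* at least 2-fold lower for PBDEs with P4.

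Most of the large ratios belonged to a single PBDE comparison, and some of these genes were too shallow to compare in the other. Without P4, PBDEs went with 4.67-fold more *Ccl5* (3.00 to 8.47), a T cell-attracting chemokine gene, and with 4.65-fold more *Lyz2* (2.69 to 10.4), the lysozyme gene of myeloid cells. For *Lyz2*, 71 of 99 UMIs in OVX_E2_PBDE came from 1 cell, and for *Ccl5*, 61 of 158. The summed hematopoietic markers were at 26.0 CPM in OVX_E2 and 48.0 CPM in OVX_E2_PBDE, and their part was not tested. *Tnfaip2*, induced by TNF, was 2.26-fold higher (1.91 to 2.71), and *Notch2* was lower at 0.412 (0.253 to 0.655). With P4, PBDEs went with 5.59-fold more *S100g* (3.68 to 8.42), of whose 47 UMIs in OVX_E2_P4_PBDE 28 came from 1 cell. The ratio of *Dgat1*, an enzyme of triglyceride synthesis, was 0.1996 (0.00253 to 0.586), and that of *Il24*, a cytokine gene, 0.221 (0.0339 to 0.5003). *Id2*, an inhibitor of helix-loop-helix factors that the alveolar lineage needs, was at 72.5 CPM in OVX_E2_P4 and 34.9 in OVX_E2_P4_PBDE (ratio 0.494, 0.329 to 0.683).

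A single cell could carry a call. Without the cell with the most UMIs in the higher library, 84 of the 96 genes higher with P4 and no PBDEs were still past 2-fold, as were 140 of the 159 lower with PBDEs and P4. In both, the higher library was OVX_E2_P4, the one with most cells. By contrast, 55 of the 124 genes higher with PBDEs and P4 and 38 of the 83 lower with P4 and no PBDEs were still past it. These last calls rest on the 102 cells of OVX_E2_P4_PBDE and the 106 cells of OVX_E2.

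Gene lists were described by the number of members called and by the median log2 ratio, beside the median of all genes tested (-0.10, 0.04, -0.16 and -0.0050 for P4 without and with PBDEs and for PBDEs without and with P4). Of 17 milk protein genes, 11 could be compared for P4 without PBDEs, of which *Lalba* was called higher and 9 had a positive log2 ratio (median 0.36). With PBDEs 0 of 10 were called (median -0.12). PBDEs gave 0 of 10 without P4 (median 0.27) and 0 of 11 with P4 (median -0.10). The other 6 or 7 of the 17 were not compared. With 0.639% to 2.09% of all genes called in each direction, 0 calls in lists of this size is near the background.

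In the list of lipid synthesis, *Scd1* and *Insig1* were called among 24 genes for P4 without PBDEs (median 0.20). *Scd1*, the stearoyl-CoA desaturase of milk fat synthesis, was at 400.1 CPM in OVX, 174 in OVX_E2 and 189 in OVX_E2_PBDE, with 401 in OVX_E2_P4 and 184 in OVX_E2_P4_PBDE. Only OVX and OVX_E2_P4 were high, with ratios of 2.30 for P4 without PBDEs (2.03 to 2.64) and 0.976 with them (0.815 to 1.16), and L-Hor cells had 1.11 and 0.820. For PBDEs with P4, *Scd1* and *Dgat1* were the 2 called lower of 23 (median -0.09). For P4 with PBDEs and for PBDEs without P4, 0 of 12 and 0 of 15 were called (medians 0.05 and 0.08).

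Cell type markers aside, the interferon-induced genes had the highest and the lowest median of all the lists and comparisons. For P4 without PBDEs, all 17 genes compared had a positive log2 ratio, 6 were called higher (among them *Isg15*, *Irf7*, *Iigp1*, *Irgm1* and *Xaf1*) and the median was 0.73. For PBDEs with P4, 14 of 17 had a negative log2 ratio, 4 were called lower (among them *Iigp1*, *Rtp4* and *Tap1*) and the median was -0.82. For P4 with PBDEs, *Irf1* was called lower among 8 (median -0.23), and for PBDEs without P4, *Isg15* and *Ifi27l2a* were called higher among 10 (median 0.18). OVX_E2_P4 is in both comparisons with large medians, so they are not independent. The 4 p200 family genes, also interferon-inducible but not on this list, went the other way, with ratios from 0.271 (*Mndal*) to 0.436 (*Ifi202b*) for P4 without PBDEs and from 1.86 (*Mndal*) to 2.10 (*Mnda*) for PBDEs with P4. The levels were low. *Iigp1*, the gene of an interferon-inducible GTPase, had 59 UMIs in OVX_E2_P4, 3 in OVX_E2_P4_PBDE and 1 in OVX_E2. *Isg15*, a ubiquitin-like protein gene, was at 18.9, 7.52, 19.8, 18.8 and 35.9 CPM, so that OVX_E2 alone was low. In OVX_E2_P4_PBDE 1 cell held 18 of the 35 UMIs of *Isg15*, and without the highest cell of each library it was at 11.5, 5.49, 14.6, 17.01 and 17.6 CPM. The summed hematopoietic markers were at 71.7 CPM in OVX, 26.0 in OVX_E2 and 48.0 in OVX_E2_PBDE, with 35.6 in OVX_E2_P4 and 54.4 in OVX_E2_P4_PBDE, and their part in these values was not tested. In L-Hor cells the medians of the list were 0.14 for P4 without PBDEs and -0.36 for PBDEs with P4.

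The class I and class II MHC list had a median of 0.38 for P4 without PBDEs, with 0 of 7 called and all 7 positive. *B2m*, the shared class I subunit, was at 1279 CPM in OVX, 602 in OVX_E2 and 808 in OVX_E2_PBDE, with 1075 in OVX_E2_P4 and 620.2 in OVX_E2_P4_PBDE. For PBDEs with P4 the list was split: *H2-Aa* and *Cd74*, both of class II, were called higher (2.75-fold, 1.86 to 3.90, and 2.42-fold, 1.84 to 3.10), while *B2m* had a ratio of 0.578 (0.530 to 0.627), and the median was 0.58. However, 1 cell held 20 of the 44 UMIs of *H2-Aa* and 1 cell held 27 of the 84 of *Cd74* in OVX_E2_P4_PBDE. Without the highest cell of each library, *H2-Aa* was at 15.7 CPM in OVX_E2_P4 and 24.8 in OVX_E2_P4_PBDE, and *Cd74* at 32.6 and 58.8 CPM, both short of 2-fold. With the full fibroblast level subtracted, the log2 ratio of *Cd74* turned to -4.13, and nothing is read from this value. The summed hematopoietic markers were also higher in OVX_E2_P4_PBDE (54.4 against 35.6 CPM), with *Tyrobp* their most abundant gene there at 22.6 CPM, and their part was not tested. *H2-Aa* was the 1 of 6 called higher for P4 with PBDEs (median 0.11), and 0 of 6 were called for PBDEs without P4 (median 0.29).

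**Figure D4:**
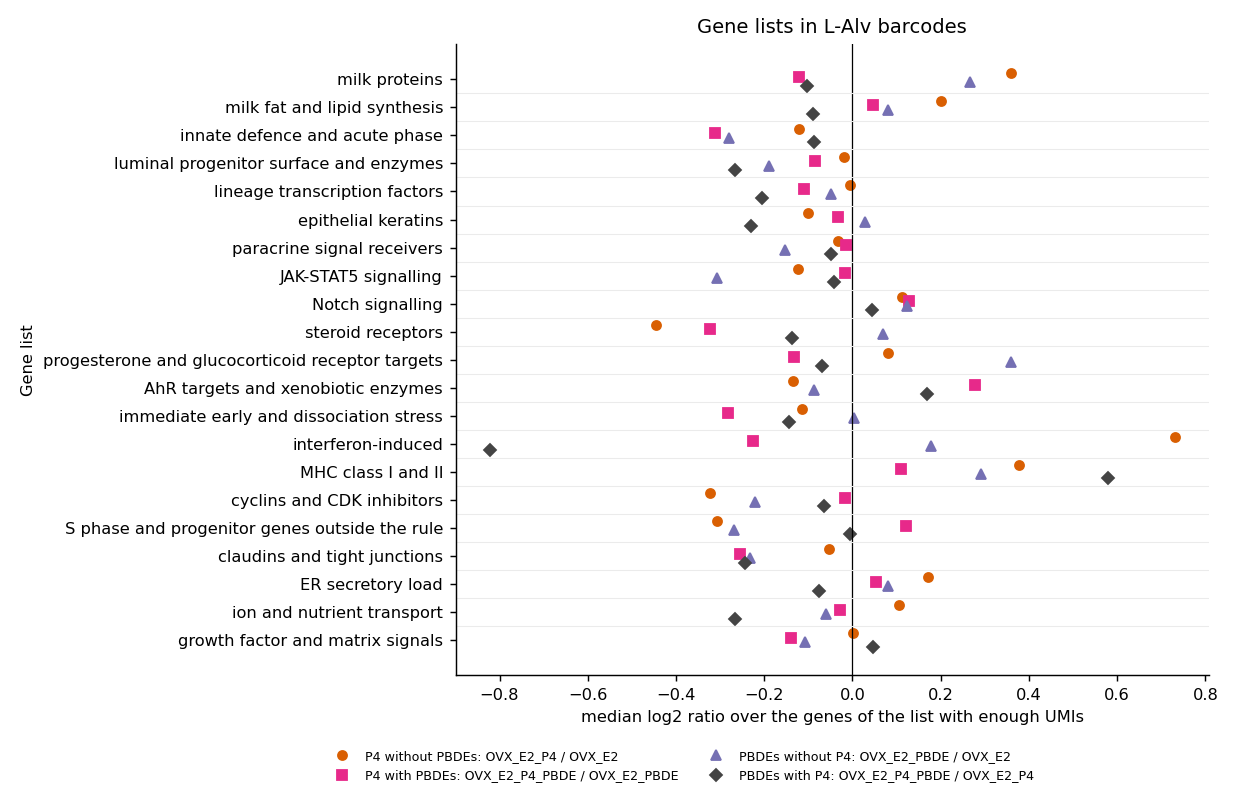
Median log2 ratio (horizontal axis) of each gene list in L-Alv cells, with 1 symbol for each of the 4 comparisons and a line at 0. The interferon-induced list lies at 0.73 for P4 without PBDEs and at -0.82 for PBDEs with P4.

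Among 29 lineage transcription factors, *Cebpb*, *Id2* and *Tfcp2l1* were called higher of 25 compared for P4 without PBDEs (median -0.01). With PBDEs, 0 of 17 were called (median -0.11). For PBDEs, *Cebpb* was called of 20 without P4 (median -0.05), and *Id2* was called lower of 25 with P4 (median -0.20). In the list of innate defense, *Cxcl1* was lower for P4 with PBDEs (1 of 14, median -0.31), *Lyz2* and *Tnfaip2* higher for PBDEs without P4 (2 of 14, median -0.28) and the chemokine gene *Cxcl15* higher for PBDEs with P4 (1 of 15, median -0.09). For P4 without PBDEs 0 of 15 were called (median -0.12).

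In the lists of hormone action the counts were near the share of all genes called, 0.639% to 2.09% in each direction, and nothing is read from them. Of progesterone and glucocorticoid receptor targets, 0 of 11, 9, 9 and 10 genes were called in the 4 comparisons, in the order above, with medians of 0.08, -0.13, 0.36 and -0.07. The metallothionein *Mt1* was at 841 CPM in OVX_E2 and 1413 in OVX_E2_PBDE, with 1588 in OVX_E2_P4 and 1522 in OVX_E2_P4_PBDE. Steroid receptors gave 0 of 3, 1, 1 and 3. JAK and STAT5 signaling gave 0 or 1 of 11, 7, 10 and 11, the 1 being *Ccnd1* (lower for P4 without PBDEs, medians -0.12, -0.02, -0.31 and -0.04). Receptors of paracrine signals gave 0 of 14, 8 and 10, and *Lgr4* (an R-spondin receptor) lower of 13 for PBDEs with P4. The aryl hydrocarbon receptor targets and xenobiotic enzymes gave 0 of 12, 11, 12 and 12 (medians -0.13, 0.28, -0.09 and 0.17). *Cyp1a1*, *Cyp1a2* and *Ahrr* had 0 UMIs in the L-Alv cells of every library, with and without PBDEs.

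Further lists are given by their calls. The surface proteins and enzymes of luminal progenitors gave 0 of 12, 11, 12 and 12 (medians -0.02, -0.09, -0.19 and -0.27). Claudins and tight junctions gave 0 of 12 each time (medians -0.05, -0.25, -0.23 and -0.24), and for PBDEs with P4 all 12 were negative. Ion and nutrient transport gave 0 of 13, 11, 11 and 13, and S phase genes outside the rule 0 of 9, 5, 6 and 7. Cyclins and their inhibitors gave *Ccnd1* of 8 for P4 without PBDEs and 0 of 7 elsewhere, and Notch signaling gave *Notch2*, lower, of 8 for PBDEs without P4 and 0 of 8 elsewhere. In the secretory pathway of the endoplasmic reticulum, *Pdia4*, a disulfide isomerase gene, was higher of 17 for P4 with PBDEs (2.05-fold, 1.24 to 3.33) and 0 of 18 were called elsewhere. Of growth factor and matrix signals, *Fst* (follistatin) was higher of 10 for PBDEs without P4, *Csf3* lower of 8 for P4 with PBDEs, *Csf3* and *Tnfsf10* (TRAIL) lower of 15 for PBDEs with P4, and 0 of 15 were called for P4 without PBDEs. Of 22 immediate early and stress genes, the heat shock gene *Hspa1b* alone was called, higher for P4 without PBDEs (3.04-fold, 2.29 to 4.30) and for PBDEs without P4 (2.44-fold, 1.79 to 3.51) and lower for PBDEs with P4 (ratio 0.430, 0.295 to 0.581). Of the epithelial keratins, those called were *Krt14* (a gene of the rule) for P4 without PBDEs, *Krt14* and *Krt6a* for PBDEs without P4, and *Krt17* (likewise of the rule) for PBDEs with P4.

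The same comparisons were made in L-Hor cells for genes deep enough in both lineages. Of the genes called higher for P4 without PBDEs in L-Alv cells, 83 were deep enough, and 7 of the 83 were also at least 2-fold higher in L-Hor cells (*Cebpb*, *Cdk2ap1*, *Fgg*, *Id2*, *Krt4*, *Llgl2* and the globin gene *Hba-a1*). Of those called lower, 6 of 80 were, among them the 4 p200 family genes. The counts were 10 of 54 and 1 of 42 for P4 with PBDEs, 10 of 35 and 0 of 47 for PBDEs without P4, and 20 of 120 and 7 of 142 for PBDEs with P4. Among the 10 of 35 were *Cebpb*, *Myl9*, *Tnfaip2*, *Rps27rt* and *Gm10263*, and among the 7 of 142 were *Upk3a* and *Id2*. *S100g* was among the 10 of 54. Genes past 2-fold in L-Hor cells made up between 0.0383% and 1.34% of all genes compared. Both lineages of a comparison came from the same pair of libraries and share their preparation and free RNA. *Lalba* was too shallow in L-Hor cells for P4 without PBDEs. The difference between the lineages was not tested.

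The 29 L-Alv cells of OVX are given apart, as levels only. Against the 4 libraries with E2, they held more *Ltf* (1570.0 CPM, the others at most 578), *Trf* (6295 CPM, the others at most 3793) and *Fcgbp*, an IgG Fc-binding mucin-like protein gene (1555 CPM, the others 418 to 796). They held less *Areg*, at 3.77 CPM against 101 CPM or more. *Ccnd1* was at 109.4 CPM, below the 135 to 272 CPM of the others. A single cell held 34 of the 37 UMIs of *S100g* in OVX. Fibroblast markers summed to 3774 CPM in these cells, of which *Gsn* (gelsolin) made up 2246, against 992 to 1462 CPM in the others, in a library with 54.7% fibroblasts. The immediate early and stress genes summed to 12338 CPM, against 6680 to 7601 CPM in the others. The part of fibroblast RNA, of other free RNA and of dissociation in the OVX values was not tested. For *Lcn2*, by contrast, the OVX cells, at 2725 CPM, lay close to the other libraries.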

How the data were processed

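The authors aligned the reads of 5 10x Genomics Chromium libraries to mm10 with Cell Ranger 2.0.0 and deposited UMI counts per gene and called barcode, without normalization. Members, gene lists and comparisons were chosen with earlier results of these data known. Doublets were left to the limits of the selection rule, and Scrublet scores served an alternative. UMIs were summed over the selected barcodes of a library and given as CPM with exact Poisson intervals. Ratios of genes have exact conditional binomial intervals, shares Clopper-Pearson intervals and ratios of shares intervals from a normal approximation on the log scale, all at 95%. With 1 library per group, no test was made, and genes with 50 or more UMIs in a pair of libraries were called at 2-fold or more with 1 UMI added. Named were genes of fixed lists, the 15 genes with the largest smaller change over each pair of comparisons without a common library, the 5 most changed genes of each comparison in each direction, the 20 genes highest over other classes and the 15 most variable genes. Some genes of the lists were not analysed here. The ratios and the thinning were run on simulated data with counting noise alone. These held no variation between cells, so they cannot show how the ratios and intervals do under it. Scrublet, another floor, prior and scaling, other limits of the rule, thinning to 3000 UMIs and subtraction of fibroblast levels were the alternatives. The last took off the full fibroblast level of each gene, with negative results cut off. Fibroblast markers summed to 992 to 1462 CPM in L-Alv cells with E2, against 34317 CPM or more in fibroblasts. The subtraction was thus far too large for carried-over RNA. Python 3.11.15, numpy 2.4.6, scipy 1.17.1, pandas 2.3.3 and scanpy 1.11.5 were used. Gene positions are from GENCODE M21 and promoters from RefSeq, both on GRCm38, the build of mm10.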

Additional observations from a re-analysis of the deposited data

Results flagged for a closer look

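The share of L-Alv cells among all barcodes had a ratio of 3.42 for P4 without PBDEs and 0.905 for P4 with PBDEs, and of 1.01 for PBDEs without P4 and 0.267 for PBDEs with P4. These are the same 4 libraries read in a pair of ways, and the difference was not tested.

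The median log2 ratio of the interferon-induced genes was 0.73 for P4 without PBDEs (17 genes) and -0.23 for P4 with PBDEs (8 genes). It was 0.18 for PBDEs without P4 (10 genes) and -0.82 for PBDEs with P4 (17 genes). The medians of each pair are thus over unlike sets of genes. The difference was not tested.

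The chemokine genes *Ccl7* and *Ccl5* were past 2-fold in opposite directions. For P4, the log2 ratio of *Ccl7* was 1.15 without PBDEs and -1.30 with them, and that of *Ccl5* was 1.501 and -1.03. *Ccl5* was at 381 CPM in the 29 L-Alv cells of OVX, 12.3 in OVX_E2 and 60.2 in OVX_E2_PBDE, with 36.6 in OVX_E2_P4 and 28.8 in OVX_E2_P4_PBDE. For *Ccl5*, 1 cell held 46 of the 101 UMIs in OVX and 1 cell 61 of the 158 in OVX_E2_PBDE. Without the highest cell of each library, *Ccl5* was at 210.5 CPM in OVX, 37.2 in OVX_E2_PBDE and 19.6 in OVX_E2_P4_PBDE, which is short of 2-fold for P4 with PBDEs. For PBDEs, the log2 ratio of *Hspa1b* was 1.28 without P4 and -1.22 with it, and that of the unnamed gene *Gm11175* was -1.36 and 1.78. None of these differences was tested.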

How the results depend on the processing

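Of 120 gene counts under alternatives, 64 stayed within 1.5 times their value and 56 moved. Of 1002 ratios of named genes, 894 stayed, 104 moved and 4 reversed. Of 32 share ratios 7 moved, and of 40 shares 19. For shares, their ratios and the ratios of named genes, moved means outside the counting interval of the same value, not past 1.5 times. Such intervals are wide for shallow genes, which thus stay easily. For named genes, only ratios past 2-fold could be labelled reversed. OVX_E2_P4 had the highest share under every alternative run. The depth of the smaller library limits each comparison, and 1 added UMI weighs more there. Replicates could not be paired or left out, because each group has 1 library. The 4 libraries with E2 cross P4 with PBDEs, and no test was made across them.

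Shares, as percent of barcodes. With epithelial barcodes as base: 8.81, 9.04, 12.0, 23.5 and 7.39 (OVX, OVX_E2, OVX_E2_PBDE, OVX_E2_P4, OVX_E2_P4_PBDE). With *Csn3* and *Spp1* at 20 or more: 3.36, 3.79, 13.1 and 3.26 in the libraries with E2. With *Prlr* and *Cited1* below 2: 3.81 in OVX_E2, 12.5 in OVX_E2_P4 and 2.67 in OVX_E2_P4_PBDE. With barcodes thinned to 3000 UMIs: 6.58 in OVX_E2, 5.97 in OVX_E2_PBDE and 5.26 in OVX_E2_P4_PBDE. Without the 20% highest Scrublet scores: 5.78 in OVX_E2_PBDE and 18.4 in OVX_E2_P4. Without barcodes over 15000 UMIs: 3.60 and 14.3 in the same libraries. The ratio for P4 without PBDEs became 2.59 on the epithelial base and 2.60 when thinned. That for P4 with PBDEs became 0.614 on the epithelial base, 0.621 with *Prlr* and *Cited1* below 2 and 1.20 without barcodes over 15000 UMIs. That for PBDEs became 1.33 without P4 on the epithelial base, and 0.214 with P4 with *Prlr* and *Cited1* below 2. The cause was not tested.

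Genes past 2-fold, as higher and lower for P4 without PBDEs, P4 with PBDEs, PBDEs without P4 and PBDEs with P4 (96 and 83, 54 and 44, 37 and 47, 124 and 159 above). With at least 200 UMIs, fewer genes are compared, and the counts were 10 and 10, 7 and 4, 6 and 4, and 24 and 19. With 5 UMIs added, they were 12 and 155 for P4 without PBDEs, 8 lower for P4 with PBDEs, 17 higher for PBDEs without P4, and 255 and 9 for PBDEs with P4, so that the split of higher and lower turned with the prior. With cells thinned, they were 46 higher, 14 and 13, 14 and 20, and 47 and 72. With the full fibroblast level subtracted, they were 540 and 231, 152 lower, 66 and 129, and 677 lower. This also removes transcripts of the L-Alv cells themselves that fibroblasts make, and nothing is read from these counts. Scaled by the median ratio, 49 were lower for P4 without PBDEs, and 58 higher and 20 lower for PBDEs without P4. With UMIs added in proportion to depth, an alternative chosen after seeing the data, 277 were lower for PBDEs with P4. Without barcodes over 15000 UMIs 31 were higher, and with *Prlr* and *Cited1* below 2, 73 were lower for P4 with PBDEs.

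Genes past 2-fold in both P4 comparisons (0 above): 1 higher with *Csn3* and *Spp1* at 20 (*Gm10053*); 5 higher with *Prlr* and *Cited1* below 2 (*Aqp3*, *Gm10053*, *Isg15*, *Lalba*, *Tns4*); 1 higher (*Cdk2ap1*) and 2 lower (*Ifi203*, *Mndal*) by Scrublet; 1 higher (*Lalba*) and 7 lower (*Cxcl1*, *Csf3*, *Slpi*, *Lmcd1*, *Ifi203*, *Mnda*, *Mndal*) without barcodes over 15000 UMIs; 1 higher (*Lalba*) and 4 lower (*Cxcl1* and 3 p200 genes) when thinned; 5 and 19 with fibroblast levels subtracted; 1 and 1 (*AY036118*, *Ifi202b*) when scaled by the median ratio. In both PBDE comparisons (5 higher and 2 lower above): 9 higher with *Csn3* and *Spp1* at 20; 1 lower by Scrublet; 1 and 0 at 200 UMIs; 3 and 0 with 5 UMIs added; 3 higher when thinned; 11 and 30 with fibroblast levels subtracted; 8 and 1 when scaled by the median ratio. *Rps27rt* was among those higher in both under each of these alternatives except the subtraction of fibroblast levels.

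Reversed was *Acta2* for P4 without PBDEs, with a log2 ratio of 0.64 by Scrublet and 0.0070 when thinned. With the full fibroblast level subtracted, *Cd74* (-4.13) and *Gm10263* (-3.49) were also reversed for PBDEs with P4. The cause was not tested.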
